A study of Homo sapiens with 12 samples.

Results

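The transcriptome of MiaPaCa-2 cells that received only the control siRNA is described here, across genes, from the 3 siControl libraries of a series of 12. The members are these 3 libraries and, within them, 733 genes of 20 lists that cover pancreatic lineage, epithelial and mesenchymal state, growth signalling, and the handling of citrate, lipid, iron and oxidants. They were read out of 70116 gene identifiers, of which 19855 are protein-coding genes. MiaPaCa-2 is an established human cell line from a pancreatic ductal adenocarcinoma, and all 3 libraries come from that 1 line, transfected with an siRNA labelled siControl. The other 9 libraries, which carry siRNAs against SLC25A1, ACLY or ACO1, are not compared with the controls here. Neither the control siRNA's sequence nor the medium and the hours between transfection and harvest are given in the sources used here, and an untransfected sample is not analysed here. No label says that the replicates were separate cultures, so the spread between them may be technical.

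Ductal adenocarcinoma cells are thought to arise from the exocrine pancreas, and tumours are often divided into a classical type that keeps gut and mucin genes and a basal-like type with squamous genes. Cells that pass from an epithelial to a mesenchymal state lose E-cadherin and its partners, under repressors such as ZEB1 and SNAI1, and gain vimentin and matrix genes. MiaPaCa-2 is known as a mesenchymal-like line without a functional CDKN2A gene. Citrate made in mitochondria is exported by SLC25A1 and split by ACLY into the acetyl-CoA used for lipids, while ACO1 turns cytosolic citrate into isocitrate. Ferroptosis, named in the series title, is death by iron-driven peroxidation of membrane lipids, which glutathione and GPX4 hold back.

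Levels are given as CPM (the usual counts scaled to a common library total) for 1 gene across libraries, and as TPM (the count divided by the length of the gene's exons, then scaled to the same total in each library) wherever genes are compared. Taking the longest annotated transcript, not all exons, as the length moved the TPM of 55 of 392 expressed members by over 1.5 times. The 3 ratios whose order turned with it are given both ways, as are some of the values that changed in size. The spread given with a share or ratio is that between the 3 libraries and does not cover the choice of length. A gene was called expressed at 1 CPM or more in each of the 3 libraries and near 0 under 0.1 CPM in each, and the rest were called in between. Of all protein-coding genes 53.4% were expressed, 34.1% were near 0, and 5352 had no count in any library. The 20 lists held 392 expressed genes, 107 in between and 234 near 0. Library totals were 36464298, 36466251 and 28641881 counts. A count of 0 allows up to 0.0823, 0.0819 and 0.105 CPM in replicates 1, 2 and 3 (3 counts), for counting error only. Between 6.36% and 6.75% of the counts were mitochondrial. The 3 replicates differed from each other by more than sampling noise (chi-square per degree of freedom from 2.64 to 3.47), so each was kept as a sample.

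How far a value near 0 can be read was examined on 175 genes that every living cell uses, a set written after the data had been seen. Of these, 162 were expressed (92.6%), 5 were in between and 8 were near 0 (4.57%). Among the 8 were the ribosomal proteins RPS3A and RPS25 (both uncertain in the sense given below), the proteasome subunits PSMB3 and PSMC4, the chaperonin subunit CCT8 and the tRNA synthetases IARS1 and VARS1. CCT8 and VARS1 were listed at 0 in each library. The largest subunit of RNA polymerase II, POLR2A, had 2, 2 and 5 counts. A gene that is listed near 0 in this table is therefore not shown to lack a transcript.

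Several of these genes lay within stretches of the genome in which nearly every gene was near 0, and the stretches below were chosen after the values had been seen. Between TRIM27 and DAXX on chromosome 6 (28903002 to 33323016), the segment that holds the major histocompatibility complex and VARS1, 156 of 172 protein-coding genes were near 0 (90.7%), against 34.1% overall. The 6 expressed genes there include BAG6, AGPAT1 and TAPBP. On chromosome 14 a run of 37 genes from CARMIL3 to NYNRIN (24052000 to 24419288) was near 0, among them the list members PCK2 and IRF9 (uncertain). How reads with several possible positions were counted is not given in the sources used here, and whether the counting or the cells set these blocks was not tested. For that reason the number of genes near 0 among the 10 nearest protein-coding neighbours, 5 on each side, stands beside some of the members near 0. For the other members near 0 it is not given. Of the 733 members, 81 are called uncertain below because at least 20% of their exon bases overlap another gene, or at least 20% of their 31-base stretches also occur in genes elsewhere.

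**Figure D1:**
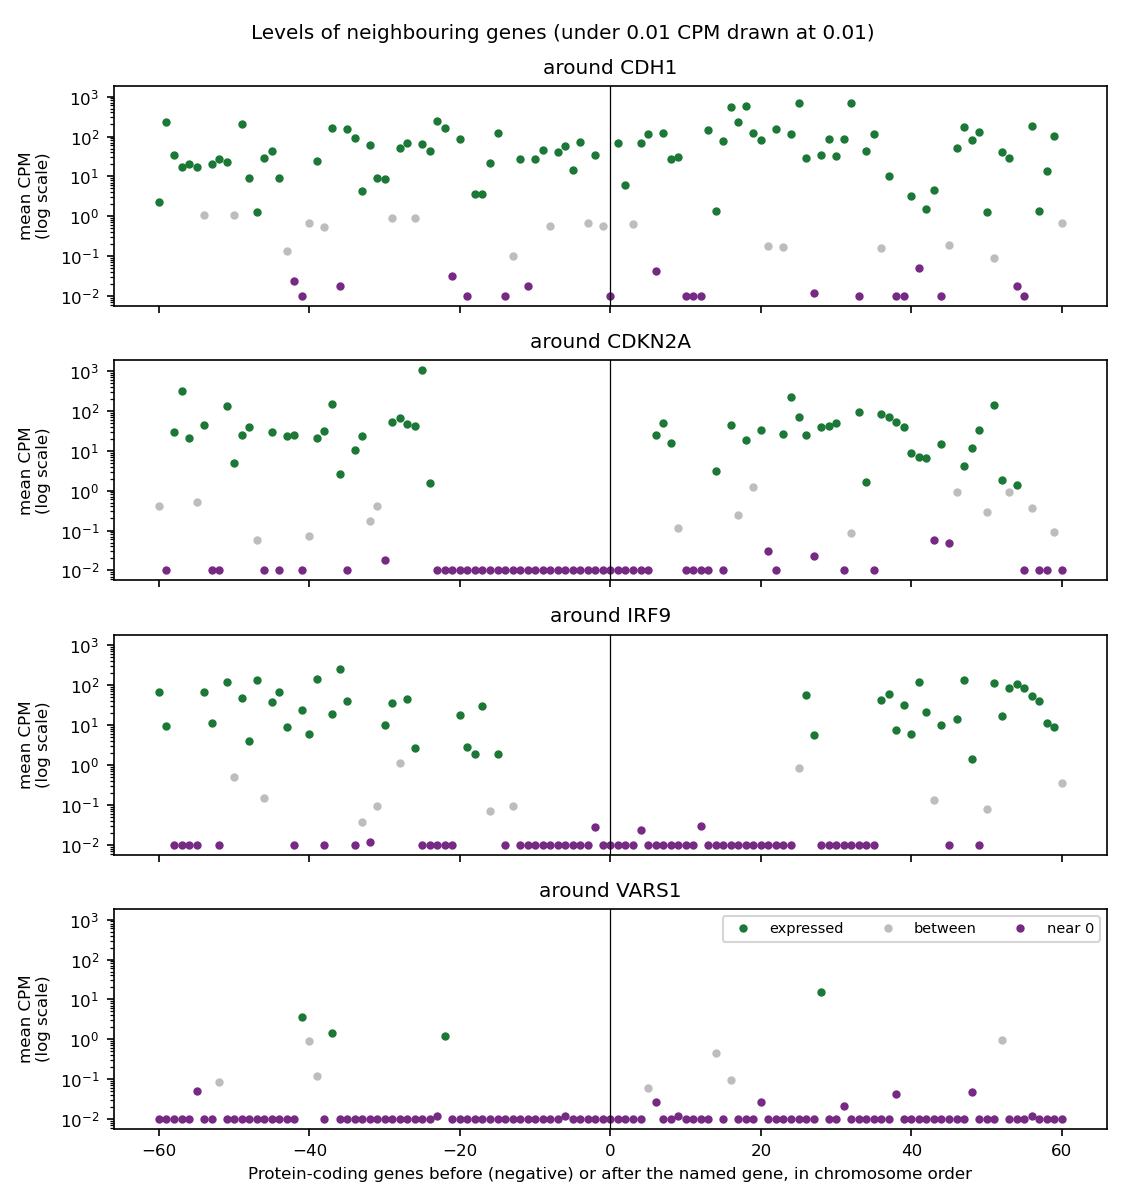
Mean CPM (log axis, values under 0.01 drawn at 0.01) of up to 60 protein-coding genes on each side of 4 genes, in chromosome order; colour gives the class over the 3 libraries. Around CDH1 20 of 121 genes were near 0 and they lie scattered, while around CDKN2A, IRF9 (uncertain) and VARS1 53, 62 and 110 were, with unbroken runs of 37 genes around IRF9 (uncertain), 29 around CDKN2A and 26 around VARS1 at the centre.

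The most abundant transcripts were those of the cytoskeleton, translation, iron storage and glycolysis. Ferritin light chain, FTL, led the nuclear protein-coding genes outside the ribosomal proteins at 11562 ± 206 TPM (mean ± SD, n = 3, as for every ± below), with an uncertain count since 33.3% of its 31-base stretches occur elsewhere. With the longest transcript as the length ACTB was the higher, at 10129 TPM against 8738 TPM for FTL (uncertain). The actin-binding thymosins TMSB10 (9289.6 TPM) and TMSB4X (8562 TPM), the actin ACTB (8551 TPM) and the elongation factor EEF1A1 (6332 TPM) followed. GAPDH (uncertain), YBX1, EEF2, HSP90AB1, the metal-binding MT2A, S100A11, VIM (uncertain), ENO1, the chromatin protein HMGA1 and S100A6 made up the first 15, down to 1887 TPM. Among the 15, shared 31-base stretches were computed only for FTL (uncertain), GAPDH (uncertain), VIM (uncertain) and ENO1. The others were examined for exon overlap alone, so the absence of a mark does not show that their counts are certain. Between 880 and 891 genes held 50% of the nuclear protein-coding counts of a library.

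Most transcription factors of the pancreatic lineage were not expressed, and SOX9 stood above the others in level. Of 22 transcription factors 6 were expressed (27.3%, against 53.4% of all protein-coding genes), 7 were in between and 9 near 0, and the list's median was 0.223 TPM against 2.04 TPM over all protein-coding genes. SOX9, the factor of duct and progenitor cells (ENSG00000125398.8; chromosome 17, 72121020 to 72126420, plus strand, GENCODE release 29 on GRCh38), was at 261, 244 and 252 CPM in replicates 1, 2 and 3. It held 85.1% ± 0.506 of the TPM of the 9 progenitor factors. The motor-neuron and pancreas homeobox gene MNX1 was at 20.4, 20.9 and 22.1 CPM, and ONECUT2 at 14.5, 17.1 and 14.9 CPM. PDX1, the factor that marks the early pancreas, was in between at 0.192, 0.382 and 0.210 CPM. PTF1A and FOXA2 were listed at 0 in each library, with 2 and 6 of 10 neighbours near 0.

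The GATA pair showed a split within a family. GATA4 was at 5.13, 5.76 and 5.26 CPM, low but present in each library, while GATA6, a marker of classical tumours, had 0, 0 and 2 counts. GATA4 held 99.5% ± 0.854 of the pair's TPM, and 1 of 10 neighbours of GATA6 was near 0.

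Markers of differentiated acinar and duct cells were expressed in few cases. Of 24 acinar markers 22 were near 0 (91.7%, against 34.1% overall) and 19 had no count in any library, including the trypsinogens PRSS1 and PRSS2, for which 10 of 10 neighbours were near 0. The lipase CEL (uncertain) was the 1 acinar marker expressed, at 3.57, 3.58 and 3.58 CPM. Among 14 duct markers 4 were expressed (28.6%, against 53.4% overall), namely the keratin KRT19 at 84.3, 87.1 and 89.4 CPM, the annexin ANXA4 at 120.0 ± 2.02 CPM, the anion exchanger SLC26A6 at 38.1 ± 1.04 CPM and the mucin MUC1 at 20.2 ± 1.39 CPM. The chloride channel CFTR and carbonic anhydrase CA2 were listed at 0 in each library. KRT7, the usual partner of KRT19 in ducts, was in between at 0.0823, 0.0546 and 0.351 CPM, or 0.134 TPM against 126 TPM for KRT19.

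Endocrine markers were near 0 for 22 of 33 genes (66.7%, against 34.1% of all protein-coding genes). Of the hormones INS (uncertain), GCG, SST and PPY were listed at 0 in each library. The 5 expressed were secretory granule protein SCG2 at 50.8, 44.5 and 48.3 CPM, PAX6 (uncertain) at 19.5 ± 0.408 CPM, synaptophysin SYP at 7.95, 6.93 and 8.24 CPM, carboxypeptidase CPE at 3.62, 5.87 and 5.05 CPM and the somatostatin receptor SSTR2 at 1.48, 1.97 and 1.26 CPM. The granule protein CHGA was listed at 0 (6 of 10 neighbours near 0). CHGB was in between at 0.439, 0.792 and 0.491 CPM, as was a second somatostatin receptor, SSTR5, at 0.850, 1.01 and 0.701 CPM.

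Markers of other cell types were low, with the exception of COL1A2. No leukocyte marker of 13 and no endothelial marker of 8 was expressed, against 53.4% of all protein-coding genes. Near 0 were 69.2% of the leukocyte and 62.5% of the endothelial markers, against 34.1%. The summed levels of these 2 lists ran over the libraries from 0.901 to 1.16 CPM and from 0.947 to 1.56 CPM. The defining leukocyte gene PTPRC and the endothelial receptor KDR were listed at 0 in each library. Of 12 fibroblast and stellate markers only COL1A2 was expressed (8.33%, against 53.4%), and 66.7% were near 0 (against 34.1%). COL1A2 was high, at 859, 872 and 878 CPM, and made up nearly all of the list's summed level of 860, 873 and 878 CPM. LUM, DCN, PDGFRA, FAP and THY1 were listed at 0.

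**Figure D2:**
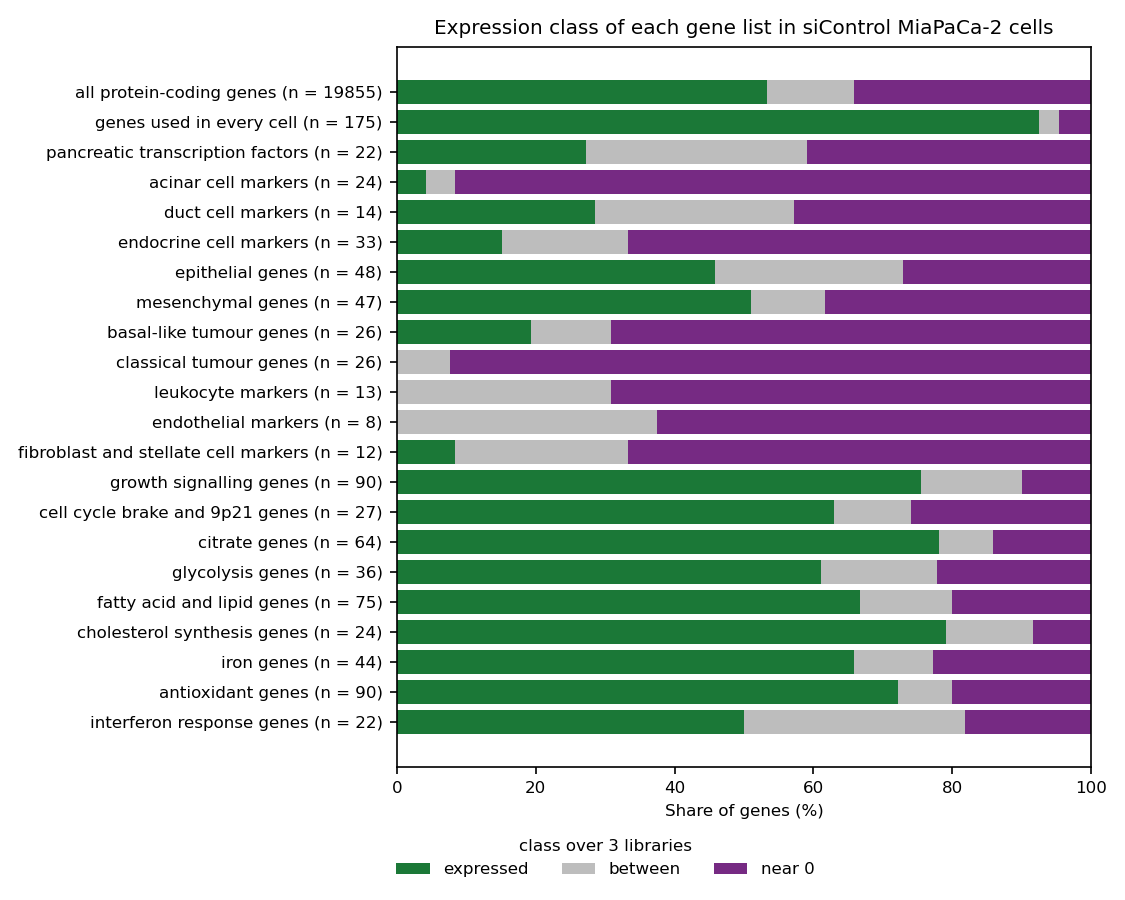
Share of the genes of each list (percent) that were expressed, in between or near 0 over the 3 libraries, with all protein-coding genes and the 175 genes used in every cell above. Acinar and classical tumour lists are near 0 for over 90% of their genes, while the citrate, cholesterol and growth signalling lists are expressed for over 75%.

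Epithelial genes ranged from KRT8 and ITGB4 at high levels to CDH1, EPCAM and GRHL2 without counts. Of 48 genes 22 were expressed (45.8%, against 53.4% of all protein-coding genes), 13 in between and 13 near 0 (27.1%, against 34.1%), and 7 had no count in any library. These shares are near those of all genes. E-cadherin, CDH1 (ENSG00000039068.20; chromosome 16, 68737225 to 68835548, plus strand), had no count in any library while 0 of its 10 neighbours were near 0, and the epithelial adhesion gene EPCAM had none either, with 2 of 10 neighbours near 0. GRHL2, a factor that maintains epithelial cells, MAL2 and LAD1 were also listed at 0. The epithelial splicing factors ESRP1 and ESRP2 were in between at 0.878, 1.09 and 0.806 CPM and at 0.384, 0.382 and 0.912 CPM.

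The intermediate filaments were high on both sides. KRT8 was at 2278, 2183 and 2254 CPM and its partner KRT18 (uncertain) at 1317, 1278 and 1309 CPM. Per length, the KRT8 level was 0.804 ± 0.00518 times that of KRT18 (uncertain), but with the longest transcript as the length it was 1.25 times, so which of the pair is the higher rests on the length used. VIM (ENSG00000026025.16; chromosome 10, 17228259 to 17237593, plus strand; uncertain, with 24.4% of its exon bases shared with another gene) was at 3465, 3594 and 3437 CPM, rank 28 among protein-coding genes in TPM. The TPM of VIM (uncertain) was 2.09 ± 0.0952 times that of KRT8, or 1.68 times by the longest transcript. Both kinds of filament gene therefore stood among the 80 highest protein-coding genes in the same libraries, and bulk RNA does not show whether the same cells held both.

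Further expressed epithelial genes belong to attachment to the basement membrane, desmosomes and tight junctions. The integrin ITGB4 of hemidesmosomes was at 571, 609 and 611 CPM, and its partner ITGA6 at 40.8 ± 2.81 CPM. PERP was at 121 ± 1.29 CPM and the plakophilin PKP3 at 63.6 ± 1.83 CPM, while PKP1 was listed at 0. The keratin KRT80 was at 288, 299.8 and 298 CPM. Among claudins, CLDN4 was at 65.1, 58.1 and 59.5 CPM and CLDN1 at 20.2 ± 1.79 CPM, whereas CLDN7 was listed at 0 in each library (7 of 10 neighbours near 0). The ETS factor EHF was at 41.9, 47.2 and 47.4 CPM and held 92.98% ± 0.503 of the TPM of the 8 epithelial transcription factors.

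Mesenchymal genes were expressed for 24 of 47 (51.1%, against 53.4% of all protein-coding genes), in between for 5 and near 0 for 18 (38.3%, against 34.1%). The list as a whole was near all genes in these shares. Among the repressors of E-cadherin, ZEB1 was at 63.1, 62.1 and 63.2 CPM and SNAI1 at 4.03, 4.29 and 4.21 CPM, with little spread. ZEB2, SNAI2, TWIST1 and TWIST2 were near 0, with ZEB2 at 0, 0 and 1 counts and SNAI2 at 0, 1 and 1 counts. ZEB1 took 47.6% ± 1.25 of the TPM of the 10 mesenchymal transcription factors, FOXC1 36.1% ± 2.23 and SNAI1 16.2% ± 1.00. N-cadherin, CDH2, the cadherin that usually replaces CDH1, had 0, 0 and 2 counts (7 of 10 neighbours near 0), and CDH4, CDH6, CDH11 and CDH13 were listed at 0. Of the 7 cadherins in the epithelial and mesenchymal lists CDH3 had the highest TPM and was itself only in between, at 0.878, 0.410 and 0.456 CPM.

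Surface and secreted genes of the mesenchymal list were among the highest. CD44, the hyaluronan receptor, was at 1411, 1423 and 1427 CPM, the ectonucleotidase NT5E at 624, 647 and 639 CPM, and the matrix cross-linker LOXL2 at 575, 578 and 599.7 CPM. The plasminogen activator PLAU (uncertain) was at 305 ± 11.4 CPM. S100A4 and the galectin LGALS1 were at 1173 TPM and 1532 TPM.

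The partners of collagen I were split. COL1A2, which encodes the alpha 2 chain, was at 859, 872 and 878 CPM, and COL1A1, the alpha 1 chain of the same trimer, at 0.192, 0.246 and 0.105 CPM, with 2 of 10 neighbours near 0. In TPM these were 264 TPM and 0.0625 TPM, and the third fibrillar gene COL3A1 was listed at 0. Collagen VI was different, with COL6A1 at 242 ± 1.83 CPM and COL6A2 at 80.97 ± 4.74 CPM. Fibronectin, FN1, was low at 2.41, 1.97 and 2.28 CPM, and SPARC and MMP2 were near 0.

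**Figure D3:**
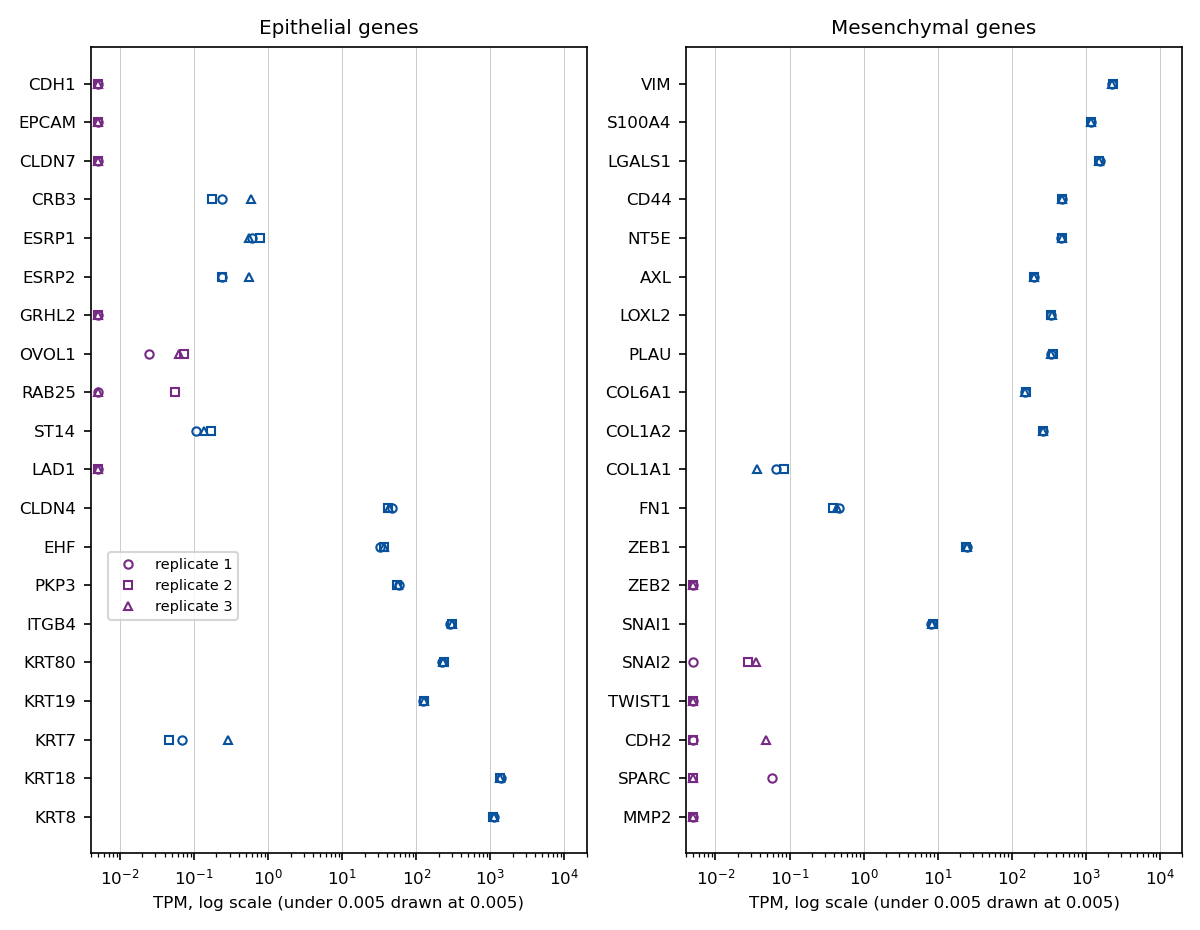
TPM (log axis, values under 0.005 drawn at 0.005) of 20 epithelial and 20 mesenchymal genes in each of the 3 siControl libraries, 1 marker shape per replicate and genes near 0 in purple. Replicates overlap for abundant genes; CDH1, EPCAM and GRHL2 lie at the lower edge while KRT8, KRT18 (uncertain) and VIM (uncertain) lie at 1102 TPM or more, and COL1A2 and COL1A1 are far apart.

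ZEB1 and SNAI1 are known to bind the E-box CAGGTG, so promoter windows were searched for these letters on both strands (a match on the other strand reads CACCTG). The windows run from 250 bases before to 50 after the annotated start (RefSeq, GRCh38.p14), and 15301 protein-coding genes and 548 members had one. Of all windows 19.8% held the motif. Many epithelial genes had no window, among them CDH1, EPCAM, GRHL2, KRT18 (uncertain) and ITGB4, so these were not searched. Of the epithelial genes with a window, the motif was found in 5 of 14 that were expressed, 5 of 6 in between and 3 of 6 near 0. In the mesenchymal list 3 of 17 expressed genes and 1 of 14 others had it. These are small counts, and a match is a description of letters, not of binding.

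The stretches of 30 bases around matches that lie wholly before the start are shown for 5 epithelial genes. Among those with a window, these are the genes below the expressed class with the most matches. The letters run 5' to 3' on the gene's strand with the motif in capitals. CRB3, a polarity protein, had 5 matches and a level of 0.110, 0.0819 and 0.280 CPM.
CRB3 at chr19:6464031-6464060: atgctcgcaatgCAGGTGtaaggtccccct
CRB3 at chr19:6464051-6464080: aggtccccctcaCACCTGcgcgcttccgcg
CRB3 at chr19:6464112-6464141: ggggtcccgttaCAGGTGcgcccacagcgc
CRB3 at chr19:6464170-6464199: ctcagcgaggctCAGGTGcacaagccggaa
CRB3 at chr19:6464199-6464228: agtgcgctctccCAGGTGagtgactaaact
AP1M2, the epithelial subunit of a clathrin adaptor, had 3 matches and 0, 1 and 5 counts, and the third match lies at the right end of its second stretch.
AP1M2 at chr19:10587352-10587381: gacagcgctgctCACCTGgccgcctcccct
AP1M2 at chr19:10587322-10587351: ttaagacgcacaCACCTGggctctCACCTG
LAD1, a basement membrane protein, RAB25, a vesicle GTPase of epithelia, and GRHL3, a grainyhead factor, had 2 matches each and were near 0.
LAD1 at chr1:201399368-201399397: gccatgtgatccCACCTGggctggaagggg
LAD1 at chr1:201399342-201399371: ggggaggggcgcCAGGTGaggcggcggccg
RAB25 at chr1:156061107-156061136: catctctccaccCACCTGggccccaggtct
GRHL3 at chr1:24319324-24319353: agttaacagctgCACCTGttgaggtatacc
CRB3 and RAB25 lie on the plus strand, as does GRHL3, and AP1M2 and LAD1 on the minus strand. Windows of the expressed KRT8, CLDN4, EHF and PERP held no match, while those of the expressed DSP and ITGA6 held 2 each. A match was thus found in expressed genes too. By class, 5 of 14 expressed epithelial windows (35.7%) and 8 of 12 others (66.7%) held one. Over all protein-coding windows the shares were 17.7% for expressed genes, 24.4% in between and 22% near 0. Whether the motif goes with class was not tested.

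Across all windows the class of a gene went with its CpG content. Expressed genes had a median of 27 CpG pairs in 300 bases, genes in between 17 and genes near 0 had 8, and the ratio of observed to expected CpG was 0.855, 0.656 and 0.37. Acinar genes near 0 had a median of 3.5 CpG pairs and classical tumour genes 5. The expressed citrate and lipid genes had 29 and 31. KRT8 is an expressed gene with 2 CpG pairs and LAD1 a gene near 0 with 38.

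Neither tumour subtype list was expressed as a whole. Of 26 classical genes none was expressed, 2 were in between (LYZ, uncertain, and VSIG2) and 24 were near 0 (92.3%, against 34.1%), among them the trefoil factors TFF1, TFF2 and TFF3, the mucins MUC5AC and MUC13, and AGR2. Summed over the list, the level ran from 0.768 to 1.51 CPM. Of 26 basal-like genes 5 were expressed (19.2%, against 53.4% overall) and 18 near 0 (69.2%, against 34.1%), of which 9 lay where at least 8 of 10 neighbours were near 0. TP63, the master factor of squamous cells, was at 150.1, 148 and 151 CPM, rank 2252 per length among protein-coding genes. The squamous keratins that usually accompany it were listed at 0, namely KRT5, KRT6A, KRT6B, KRT6C, KRT14 and KRT17 (all but KRT5 uncertain). Of these, KRT5, KRT6A, KRT6B and KRT6C lie in a run of 20 genes near 0 on chromosome 12. KRT15 was expressed at 6.99, 8.00 and 6.94 CPM, as were the protease CTSV at 18.8 ± 0.471 CPM, S100A2 at 2.52, 2.27 and 3.12 CPM and the growth factor AREG at 28.9, 30.7 and 28.5 CPM. The labels do not say which TP63 isoform is present, and gene counts do not show it.

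Growth signalling genes were expressed for the most part, with 68 of 90 genes expressed (75.6%, against 53.4%), 13 in between and 9 near 0. At the membrane, the epidermal growth factor receptor EGFR (ENSG00000146648.21; chromosome 7, 55019021 to 55211628, plus strand) was at 314, 325 and 334 CPM and ERBB2 at 131, 134 and 132 CPM. In TPM, EGFR took 66.00% ± 0.564 of the 4 ERBB receptors and was 2.02 ± 0.0530 times ERBB2, but with the longest transcript as the length its share was 54.4% and the ratio 1.23. ERBB3 was low at 3.87, 5.21 and 4.73 CPM, and ERBB4 was near 0. Ligands of EGFR were expressed in the same libraries: EREG was at 304, 283 and 301 CPM, AREG at 29.4 ± 1.17 CPM, BTC at 18.5 ± 0.803 CPM and HBEGF at 13.7 ± 1.04 CPM, while TGFA was near 0 and EGF in between. In TPM all stood below EREG, which made up 63.99% ± 1.45 of the ligand TPM.

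Among other receptor tyrosine kinases the ephrin receptor EPHA2 stood highest per length, with a level of 466, 428 and 465 CPM, before AXL at 303, 299 and 308 CPM and the collagen receptor DDR2 at 128, 136 and 134 CPM. MET, the receptor of hepatocyte growth factor, was at 16.7 ± 0.323 CPM, IGF1R at 65.2 ± 2.01 CPM and INSR at 27.4 ± 1.71 CPM. The other collagen receptor, DDR1, was in between at 0.137, 0.0546 and 0.0701 CPM, but 10 of its 10 neighbours, in the blank stretch of chromosome 6, were near 0. All 4 FGF receptors were expressed, FGFR3 the highest with 51.9% ± 2.45 of their TPM, or 39.4% by the longest transcript. KIT, PDGFRA, NTRK2 and NTRK3 were listed at 0.

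Below the receptors, NRAS was at 139, 140.4 and 141 CPM and HRAS in between at 1, 6 and 0 counts (5 of 10 neighbours near 0). ARAF led the RAF kinases with 77.8% ± 0.190 of their TPM, and MAP2K2 was at 367 ± 12.3 TPM against 38.9 ± 0.724 TPM for MAP2K1, a ratio of 9.45 ± 0.220, or 15.3 by the longest transcript. In the PI3-kinase branch PIK3CB was at 96.7 ± 4.22 CPM and PIK3CA (uncertain) at 39.1 ± 1.20 CPM, and the kinases AKT1 and AKT2 were at 58.1 ± 1.20 TPM and 51.6 ± 0.470 TPM. With the longest transcript as the length AKT2 was the higher, at 111 TPM against 58.3 TPM.

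MYC was at 311, 292 and 298 CPM and held 99.7% ± 0.0319 of the MYC family TPM, with MYCN listed at 0. Of the TGF-beta branch the receptor TGFBR1 was at 19.97, 22.3 and 21.8 CPM, whereas TGFBR2, the receptor that binds the ligand first, had 0, 0 and 1 counts and 3 of 10 neighbours near 0. SMAD2, SMAD3 and SMAD4 were all expressed, at 120.0 ± 1.30 CPM, 82.4 ± 4.04 CPM and 59.4 ± 0.464 CPM. The coactivators of the Hippo pathway were both high: WWTR1 was at 356, 359.6 and 354 CPM and YAP1 at 129, 134 and 129.6 CPM. The WWTR1 level per length was 2.04 ± 0.0280 times that of YAP1, or 2.92 times by the longest transcript. Their target CCN1 was at 102, 82.4 and 89.8 CPM and a second target, CCN2, at 1.12, 1.42 and 1.44 CPM.

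Cell cycle brakes were divided by position. CDKN2A (ENSG00000147889.18; chromosome 9, 21967753 to 21995301, minus strand) and CDKN2B, inhibitors of the cyclin D kinases, were listed at 0 in each library, as were MTAP, KLHL9, IFNE and DMRTA1 beside them on 9p21. The run of genes near 0 extended over 29 protein-coding genes from SLC24A2 to TUSC1 (19507452 to 25678440), of which 28 had no count in any library. On its 2 sides the genes next to it, chosen by position, were expressed: ACER2 at 1.58 ± 0.216 CPM and RPS6 at 1036 ± 18.3 CPM on one, CAAP1 at 25.4 ± 1.18 CPM and PLAA at 48.4 ± 1.60 CPM on the other. The remaining inhibitors of the family, CDKN2C and CDKN2D, were at 40.8 ± 2.11 CPM and 11.03 ± 0.622 CPM. CDKN1B was at 94.99, 97.9 and 88.8 CPM and CDKN1A, another inhibitor of cyclin-dependent kinases, at 1.45, 0.983 and 1.30 CPM, so that CDKN1B held 98.3% ± 0.373 of the TPM of the 3 genes of its family. Cyclin D1, CCND1, was at 319.8, 308 and 315 CPM and its level per length was 6.44 ± 0.243 times that of CCND3 (2.98 by the longest transcript), with CCND2 in between. RB1 was at 71.7 ± 0.340 CPM.

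Citrate genes were expressed for 50 of 64 (78.1%, against 53.4%), in between for 5 and near 0 for 9, with a median of 31.2 TPM against 2.04 TPM overall. Importers at the plasma membrane were near 0: SLC13A5, the citrate transporter, had 0, 1 and 0 counts (3 of 10 neighbours near 0), and SLC13A2 was listed at 0. ANKH, which exports citrate and pyrophosphate, was low at 5.46, 5.19 and 6.07 CPM. At the mitochondrial membrane SLC25A1 was at 131, 132 and 132 CPM, which per length was 9.19 ± 0.304 times the dicarboxylate carrier SLC25A10 (uncertain). Citrate synthase, CS, was at 277, 265 and 265 CPM.

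Of the 3 genes that the series knocked down in its other libraries, ACLY stood first per length and ACO1 last. ACLY was at 318 ± 2.68 TPM, SLC25A1 at 213 ± 1.92 TPM and the cytosolic ACO1 at 19.8 ± 0.554 TPM, and no 2 of these ranges overlap over the 3 libraries. The ACLY level per length was 1.49 ± 0.0230 times that of SLC25A1 and 16.04 ± 0.311 times that of ACO1. By the longest transcript these 2 ratios were 1.41 and 19.1. IREB2, the iron-regulatory protein related to ACO1, had 1.10 ± 0.0410 times the TPM of ACO1 and was higher in each of the 3 libraries. By the longest transcript this ratio was 1.84.

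Isocitrate dehydrogenases were all expressed. Cytosolic IDH1 was at 129.7, 134 and 134 CPM and mitochondrial IDH2 at 69.1, 75.2 and 69.8 CPM, with 19.8% ± 0.371 and 17.9% ± 0.965 of the family's TPM. By the longest transcript these shares were 24.5% and 11.96%. Acetyl-CoA can also be made from acetate, and the cytosolic synthetase ACSS2 was at 21.5, 21.1 and 23.3 CPM and mitochondrial ACSS1 at 26.4, 29.5 and 26.9 CPM, both far under ACLY in TPM (13.8 TPM and 10.8 TPM), while ACSS3 was listed at 0. Malic enzymes ME1 (cytosolic) and ME2 (mitochondrial) took 52.99% ± 0.421 and 46.7% ± 0.509 of their family, and ME3 was in between. Their order turned with the longest transcript as the length, to 39.5% and 60.1%.

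For the other inputs of the cycle, pyruvate carboxylase PC was at 55.5 ± 1.53 CPM. The mitochondrial transaminase GOT2 was at 377 ± 1.68 TPM and GOT1 at 117 ± 5.15 TPM. MDH2, the mitochondrial malate dehydrogenase, had the highest TPM of the citrate list, at 577 ± 4.20 TPM. PCK1 was listed at 0, and so was PCK2, for which 9 of 10 neighbours were near 0. Of the kinases that switch off pyruvate dehydrogenase, PDK1 was at 19.2, 18.5 and 18.7 CPM, PDK3 at 12.9, 14.01 and 13.3 CPM and PDK2 (uncertain) at 4.37 ± 0.389 CPM, and PDK4 was in between. ACOD1, which makes itaconate from aconitate, was listed at 0.

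**Figure D4:**
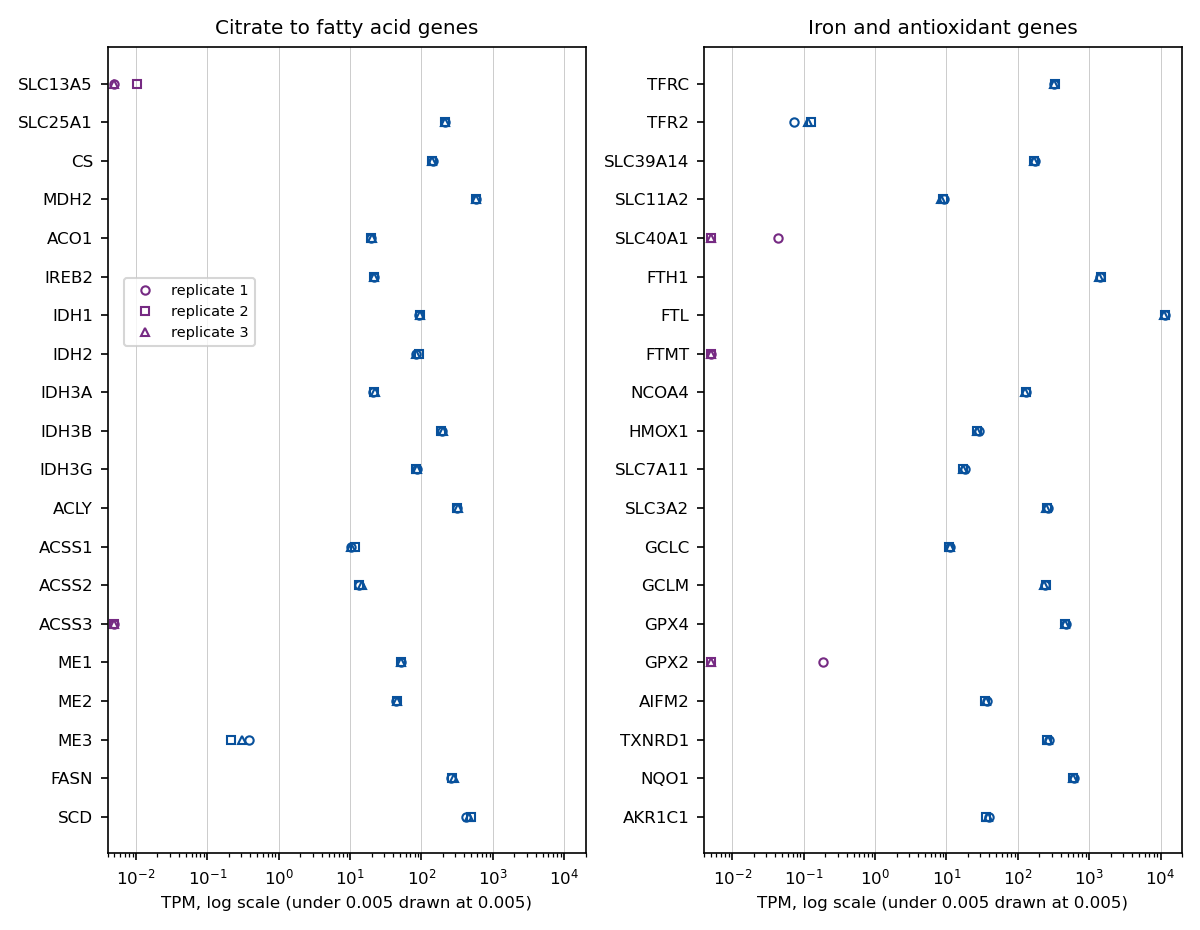
TPM (log axis, values under 0.005 drawn at 0.005) of 20 genes from citrate to fatty acids and 20 genes of iron and antioxidant defence in each of the 3 siControl libraries, 1 marker shape per replicate and genes near 0 in purple. ACLY, SLC25A1, FASN and SCD lie between 213 and 465 TPM while ACO1 and IREB2 lie at 19.8 and 21.7; the importer SLC13A5 and the iron exporter SLC40A1 lie near the lower edge.

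Glycolysis genes included some of the highest levels in the table and, for steps of the same pathway, some of the lowest. Of 36 genes 22 were expressed (61.1%, against 53.4%), 6 in between and 8 near 0. GAPDH (uncertain) was at 4911 TPM, ENO1 at 2246 TPM, TPI1 at 1537 TPM and the pyruvate kinase PKM at 1216 TPM. By the longest transcript ENO1 was at 3514 TPM and PKM at 2612 TPM. The glucose carrier SLC2A1 was at 124, 122 and 126 CPM and held 88.4% ± 0.271 of the TPM of the 4 carriers listed. The TPM of HK1 was 1.13 ± 0.0480 times that of HK2 (1.69 by the longest transcript), and PFKP led the phosphofructokinases with 48.2% ± 0.198.

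Lactate dehydrogenase stood out by its low counts. LDHA had 2, 4 and 2 counts and LDHB (uncertain) was listed at 0 in each library, with 5 and 5 of their 10 neighbours near 0. ALDOA (uncertain), the aldolase between PFK and GAPDH, was at 11.96, 9.86 and 10.8 CPM, and the lactate carrier SLC16A1 at 0.165, 0.0546 and 0.140 CPM. A second lactate carrier, SLC16A3, was at 204, 192 and 198 CPM. Whether the low LDHA, LDHB (uncertain) and ALDOA (uncertain) values are those of the cells or of the counting was not tested.

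Lipid genes were expressed for 50 of 75 (66.7%, against 53.4%), in between for 10 and near 0 for 15. In the synthesis of fatty acids FASN was at 726, 726 and 805 CPM and the desaturase SCD at 673, 790.4 and 746 CPM, which held 98.4% ± 0.165 of the TPM of the SCD pair. The carboxylase step between ACLY and FASN was low, with ACACA at 2.99, 3.30 and 2.77 CPM and ACACB at 9.82, 10.4 and 9.96 CPM, or 0.787 TPM and 2.35 TPM against 272 TPM for FASN, and 2 of 10 neighbours of ACACA were near 0. Of the elongases ELOVL5 and ELOVL1 took 59.4% ± 0.957 and 40.3% ± 1.02, and ELOVL6, which extends palmitate, was in between at 0.110, 0.191 and 0.175 CPM.

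Genes that set the content of oxidisable lipids were present at middle levels. ACSL4, which activates polyunsaturated fatty acids and promotes ferroptosis, was at 54.2, 55.4 and 55.01 CPM, and ACSL3, which activates monounsaturated ones, at 101, 108 and 103 CPM. In TPM ACSL3 took 46.03% ± 0.952 and ACSL4 27.3% ± 0.332 of the family, and ACSL5 and ACSL6 were in between. LPCAT3 (uncertain), which places such fatty acids into phospholipids, was at 17.1, 19.3 and 17.7 CPM, and MBOAT1 and MBOAT2, which place monounsaturated ones, at 5.07 ± 0.291 CPM and 29.7 ± 1.14 CPM. The desaturases FADS1 and FADS2 were at 64.2 ± 2.77 CPM and 25.4 ± 1.43 CPM.

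Storage and uptake genes were divided by paralog. Among lipid droplet coats PLIN3 held 90.9% ± 0.431 of the TPM and PLIN2 8.58% ± 0.393, or 82.9% and 16.7% by the longest transcript. DGAT2 was at 24.9, 24.3 and 27.3 CPM, and DGAT1 was listed at 0 in each library (4 of 10 neighbours near 0). The scavenger receptor CD36 was listed at 0, the transporter SLC27A4 was at 68.7, 65.04 and 67.03 CPM and SLC27A3 was listed at 0. CPT1A, the entry to mitochondrial oxidation, was at 81.9, 80.1 and 87.1 CPM with 82.3% ± 1.41 of the TPM of the 4 carnitine transferases. SREBF1 and SREBF2, the factors of lipid and sterol synthesis, were at 215, 239 and 234 CPM and at 120.0, 121 and 123 CPM.

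Cholesterol synthesis was expressed at 19 of 24 genes (79.2%, against 53.4%). The squalene epoxidase SQLE was at 35.3, 35.6 and 37.8 CPM and the cyclase LSS, the next step, at 44.4, 43.3 and 46.7 CPM. FDFT1, which commits the pathway to sterols, was in between with 12, 5 and 9 counts (7 of 10 neighbours near 0), and NSDHL was listed at 0 (9 of 10). The esterifying enzyme SOAT1 held 99.4% ± 0.165 of the SOAT pair.

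Iron import and storage transcripts were high, and those of export were near 0. Of 44 genes 29 were expressed (65.9%, against 53.4% of all protein-coding genes), 5 in between and 10 near 0 (22.7%, against 34.1%). The transferrin receptor TFRC (ENSG00000072274.14; chromosome 3, 196027183 to 196082189, minus strand) was at 738, 767 and 741 CPM, and TFR2, its liver-type relative, in between at 0.110, 0.191 and 0.175 CPM. SLC39A14, which imports iron outside transferrin, was at 355, 339.5 and 347 CPM, and SLC11A2, the endosomal exit, at 26.6 ± 1.07 CPM. The endosomal reductase STEAP3 was at 52.5, 49.9 and 52.03 CPM and the surface reductase CYBRD1 at 153, 162 and 162 CPM.

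Ferritin transcripts stood above those of uptake, with 11562 TPM for FTL (uncertain) against 322 TPM for TFRC, a ratio of 35.96 ± 0.913, or 23.3 by the longest transcript. FTL (uncertain) was at 3035, 2999 and 2954 CPM and FTH1 (uncertain) at 843, 862 and 841 CPM, and per length FTL was 8.16 ± 0.146 times FTH1 (4.94 by the longest transcript), both uncertain. NCOA4, which carries ferritin to lysosomes, was at 156, 157 and 154 CPM. The only known iron exporter, SLC40A1, had 2, 0 and 0 counts (2 of 10 neighbours near 0), its ferroxidase HEPH was listed at 0, and HAMP, the hormone that removes SLC40A1, was near 0. The regulators ACO1 and IREB2, given above, stood beside FBXL5, which degrades IREB2 when iron is plentiful, at 44.2, 44.3 and 44.6 CPM.

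Haem degradation was counted for HMOX1 at 20.5, 18.9 and 19.3 CPM, while HMOX2, the constitutive form, was listed at 0 (6 of 10 neighbours near 0). ALAS1, the first step of haem synthesis, was at 112, 108 and 113 CPM and the erythroid form ALAS2 was near 0. The mitochondrial iron carriers SLC25A37 and SLC25A28 were at 108 ± 2.88 CPM and 38.9 ± 1.54 CPM.

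Antioxidant genes were expressed for 65 of 90 (72.2%, against 53.4%), in between for 7 and near 0 for 18. GPX4 (ENSG00000167468.20; chromosome 19, 1103926 to 1106791, plus strand), the peroxidase of membrane lipids, was at 282, 273 and 274 CPM and held 75.1% ± 0.454 of the TPM of the 8 glutathione peroxidases. GPX1 (uncertain) took 14.9% ± 0.185 and GPX8 9.93% ± 0.655, while GPX2, a gut epithelial form, was near 0.

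The supply of cysteine and glutathione was uneven between partners. SLC7A11, the exchanger that brings in cystine, was at 51.1, 48.2 and 49.3 CPM, and its chaperone SLC3A2, which also serves other carriers, at 405, 387 and 387 CPM, or 14.8 ± 0.158 times the SLC7A11 level per length (34.5 by the longest transcript). The catalytic subunit GCLC was at 28.3, 27.4 and 28.9 CPM and the modifier GCLM at 381, 393 and 372 CPM, and the GCLM level per length was 21.6 ± 1.18 times that of GCLC, or 10.6 by the longest transcript. GSS and GSR were at 132 ± 2.38 CPM and 82.95 ± 2.85 CPM.

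Defences outside glutathione were also expressed. AIFM2, which reduces ubiquinone at the membrane (also called FSP1), was at 56.04, 51.8 and 54.3 CPM, DHODH at 42.3, 38.3 and 42.6 CPM, VKORC1L1 at 173 ± 6.89 CPM and GCH1, which makes tetrahydrobiopterin, low at 3.70, 3.47 and 4.03 CPM. All 6 peroxiredoxins were expressed, PRDX1 (uncertain) the highest at 1471 TPM and PRDX5 next at 557 TPM. TXNRD1 was at 550.0, 510.1 and 532 CPM and thioredoxin, TXN, at 237, 235 and 239 CPM.

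Genes known as targets of NRF2 differed in level. NQO1 was at 594, 575 and 579 CPM, AKR1C1 (uncertain) at 101, 91.6 and 98.7 CPM, and AKR1B10 (uncertain) was listed at 0. The regulators NFE2L2 (uncertain), which encodes NRF2, and KEAP1, which holds it back, were at 79.1 ± 1.28 CPM and 105 ± 5.58 CPM. Of the enzymes that make NADPH, PGD was at 311, 309 and 303 CPM. Of enzymes that oxidise lipids ALOX5 was listed at 0, ALOX15 was in between, ALOX12 was at 4.94, 4.81 and 5.36 CPM and POR, the cytochrome P450 reductase, at 126, 122 and 127 CPM. Among NADPH oxidases, CYBB, NOX3, NOX4 and NOX5 were listed at 0, NOX1 was in between at 0.384, 0.355 and 0.491 CPM and DUOX1 was at 1.34, 1.64 and 2.03 CPM.

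Interferon response genes were present at a low level, with 11 of 22 expressed (50%, near the 53.4% of all protein-coding genes), 7 in between and 4 near 0 (18.2%, against 34.1%). IFIT2 was at 21.01, 22.7 and 21.98 CPM, IFIT1 at 17.7, 17.8 and 16.2 CPM and MX2 at 20.1, 21.9 and 21.7 CPM. IRF7 and IRF9 (uncertain), factors of the response, were listed at 0, with 6 and 10 of 10 neighbours near 0. The siRNA transfection is shared by all 3 libraries, and its part in these levels was not tested.

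**Figure D5:**
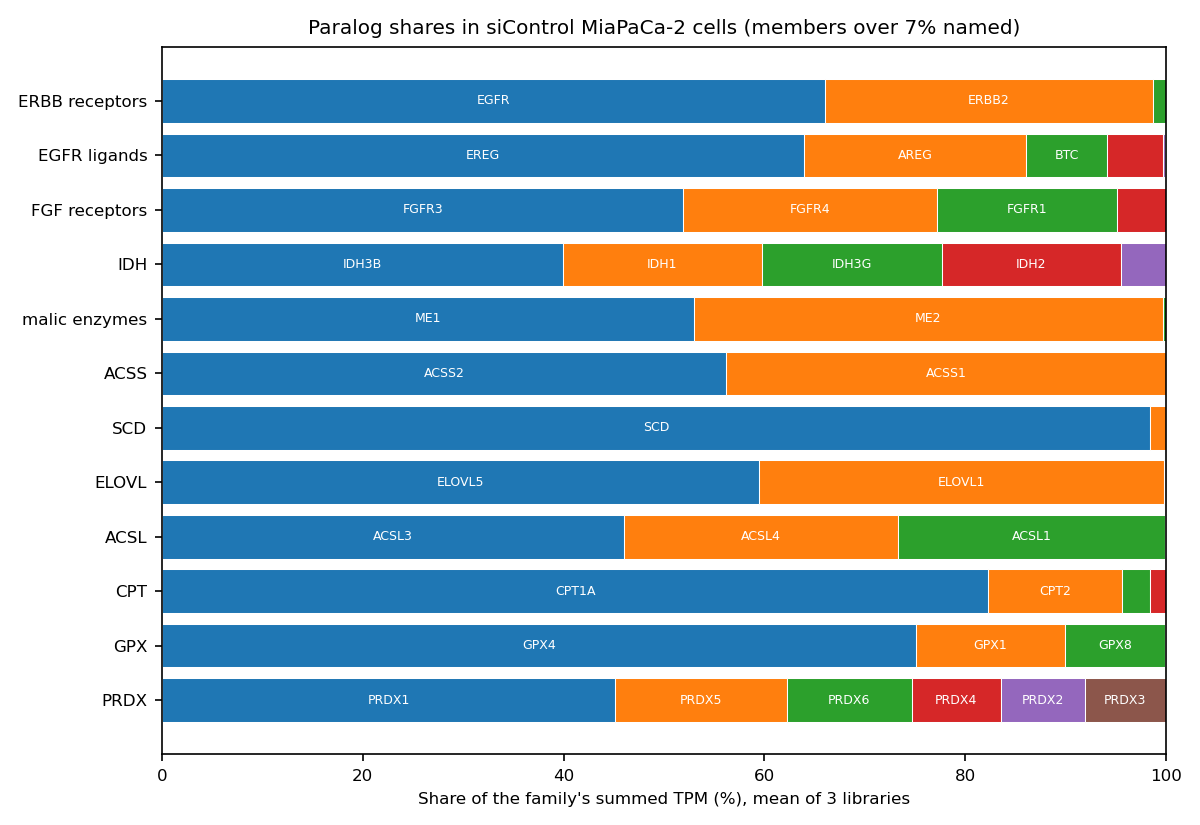
Share (percent) of each paralog in the summed TPM of its family, mean of the 3 siControl libraries, for 12 families; paralogs over 7% are named. SCD holds 98.4% of its pair and CPT1A 82.3% of the CPT family, while the IDH and PRDX families are spread over several genes.

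The 3 libraries were close for these genes. Over the 344 members at 5 CPM or more the median coefficient of variation was 3.03%, where counting alone would give 2.20%. Over all 9886 genes at that level the values were 3.47% and 2.68%. No member exceeded 20%, and only 19 of the 9886 genes did, so this is not particular to the members. The members with the largest variation were the cyclin CCNE2 (uncertain) at 7.74, 9.80 and 7.15 CPM, the sterol demethylase CYP51A1 (uncertain) at 11.4, 8.11 and 10.3 CPM and FABP5 (uncertain) at 12.6, 11.6 and 9.22 CPM. SCD also varied by 8.08% where counting gives 0.638%, with replicate 1 the lowest. Outside the lists the immediate early gene FOS varied by 27.8%, at 9.82, 10.6 and 6.03 CPM, and the small RNA gene RN7SL1 (uncertain) by 28.6%, at 75.5, 43.7 and 76.3 CPM, with replicate 2 the lowest.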

How the data were processed

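Poly-A RNA of MiaPaCa-2 cells was sequenced, and the authors deposited 1 table of raw counts per gene (whole numbers, not normalized), from which the 3 siControl columns are described; 0 columns of the table belong to no sample of the series. The submitters' processing notes name CASAVA, FastQC, Trim Galore, STAR 2.7.0e and DESeq2, and the builds GRCm39 and GRCh38, without a role or an order. The counting tool, its annotation, its use of strand and its treatment of reads with several positions are not given in the sources used here.

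Counts were scaled by the trimmed mean of M values over the 3 libraries (edgeR 4.0.16, R 4.3.3) to CPM. TPM was computed from the counts and the union of each gene's exons in GENCODE release 29. That release matched 58261 of 70116 identifiers, and the 11855 others held 0.353% to 0.363% of the counts. Intervals and floors cover counting error only. Since 1 group is described, no test was made between groups. Neighbours are protein-coding genes in chromosome order. A gene was called uncertain from exon overlap or shared 31-base stretches, each at 20% or more. The computations of CPM level and class were tested on simulated data, and those of family shares were not. Promoter sequences are those of RefSeq (GRCh38.p14). Python 3.11.15, numpy 2.4.6, pandas 2.3.3 and matplotlib 3.10.9 were used.

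The members and lists were chosen with earlier results of these data known. Of 734 list genes 733 were found in the table, and GSTT1 was not matched. Named genes are members of the lists, the 15 nuclear protein-coding genes of highest TPM outside the ribosomal proteins, and the 10 genes of largest coefficient of variation; all others, with the 175 genes that every cell uses, were chosen after values were seen. Alternatives were other thresholds, another scaling, other gene lengths, leaving out each library, and leaving out uncertain genes or genes among neighbours near 0. Values of some list members are not reported here.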

Additional observations from a re-analysis of the deposited data

How the results depend on the processing

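Over 13 alternative settings 859 values of 117 results were recomputed. Of these, 791 kept their class or stayed within the replicate spread or 1.5 times the count, 65 moved and 3 ratios turned. Most changes came from 1 setting: with the longest transcript as the length 50 values moved, 3 turned and only 5 kept. All values without replicate 1, 2 or 3 were among those that kept. With thresholds of 0.5 and 0.05 CPM, 5 pancreatic transcription factors were near 0 in place of 9, 3 endothelial markers in place of 5 and 6 iron genes in place of 10, while 1 classical tumour gene and 1 endothelial marker became expressed. With thresholds of 1 and 0.1 TPM, 1 classical tumour gene was expressed as well. These follow from where the limits were set. Genes with 8 or more of 10 neighbours near 0 were left out in an alternative chosen after seeing the data, as was that without genes of 20% or more exon overlap. The former left 9 basal-like genes near 0 in place of 18, 1 cell cycle and 9p21 gene in place of 7, 1 cholesterol gene in place of 2 and 2 interferon genes in place of 4, by construction, since fewer genes were counted. Scaling over all 12 libraries gave levels of 1324 CPM for KRT18 (uncertain), 63.9 for ZEB1, 152 for TP63, 134 for SLC25A1 and 498 for ACLY. The longest transcript as the length was planned for shares and added for ratios after seeing the data. It turned the ratio of KRT8 to KRT18 (uncertain) to 1.25, of AKT1 to AKT2 to 0.528 and of ME1 to ME2 to 0.658. Among the shares that moved were SOX9 at 78.6%, EGFR at 54.4%, SLC25A1 at 54.0%, ACLY at 99.4%, CPT1A at 72.8%, ARAF at 67.4%, SCD at 97.8% and GPX4 at 81.1%.

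No paired analysis was possible because only 1 group is described and no test was made. Depth limits what is near 0: a count of 0 in 1 library still allows a level of up to about 0.1 CPM (3 counts). Counts of genes used in every cell that were near 0 show that a value near 0 in this table can also have a source other than depth, and the cause was not tested. All 3 libraries come from 1 cell line with 1 control siRNA, so the spread is not that of the tumour type.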
